A study of Mus musculus with 16 samples.

Results

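Interferon-stimulated genes are the genes that a cell switches on when it meets an interferon, and 51 of them were followed in the mouse macrophage line RAW264.7 given oxidised low-density lipoprotein (oxLDL), tirzepatide or both. A listed gene was kept where 10 or more counts were found in 4 or more of the 16 libraries. Of the 51 symbols, 50 had a row in the deposited table and 42 were kept, out of 21965 genes in the table, of which 11365 met the same count rule. Mx2 was not analysed here, and Mx1, Zbp1, Gbp2, Oasl2, Ddx60, Iigp1, Ifit3 and Ifi47 were below the count rule. The RNA sequencing covered 4 groups of 4 libraries: oxLDL with tirzepatide (called the combination here), oxLDL alone at 50 µg/ml, tirzepatide alone at 100 nmol/ml, and a control given the vehicle, which was culture medium. The unit of the tirzepatide dose is given as the labels have it; nmol/l may be meant. All groups were the same cell line in high-glucose medium with serum, the labels name no genetic change, and they describe the cells as a mononuclear macrophage leukemia line. No treatment time is given. Nothing in the labels says that a group's 4 libraries were grown apart, so p-values here reflect only the spread between these samples, which may be technical. OxLDL loads macrophages with lipid on the way to foam cells, and tirzepatide is a peptide agonist at the GIP and GLP-1 receptors.

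Type I interferons bind the receptor pair Ifnar1 and Ifnar2, whose kinases Jak1 and Tyk2 switch on a complex that holds Stat2 and Irf9. This complex binds a DNA element called the interferon-stimulated response element, ISRE, while interferon gamma acts through the gamma-activated sequence, GAS. Macrophages keep many of these genes on at a low level without infection, and their products degrade viral RNA, sense foreign nucleic acid, attack intracellular vacuoles or feed back on the pathway.

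The promoters of 4 members are shown because they hold the ISRE letters and belong to genes on which the results turn: Isg15, Ifih1 and Ifi203, which fell with oxLDL, and Ifi207, a relative of Ifi203 that did not pass with oxLDL and has the same letters. Each is the 300-base window of RefSeq on GRCm38.p6, from 250 bases before the transcription start to 50 after it, written 5′ to 3′ on the gene's strand. Capitals mark every match to GAAANNGAAA. The windows lie on the minus strand at chr4:156200769-156201068 for Isg15, chr2:62646206-62646505 for Ifih1, chr1:173942443-173942742 for Ifi203 and chr1:173741760-173742059 for Ifi207.
Isg15: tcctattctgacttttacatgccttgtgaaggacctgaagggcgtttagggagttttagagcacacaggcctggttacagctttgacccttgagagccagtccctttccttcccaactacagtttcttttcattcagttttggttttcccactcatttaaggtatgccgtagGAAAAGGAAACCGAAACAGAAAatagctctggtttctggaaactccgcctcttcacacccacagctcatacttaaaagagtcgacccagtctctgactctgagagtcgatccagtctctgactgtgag
Ifih1: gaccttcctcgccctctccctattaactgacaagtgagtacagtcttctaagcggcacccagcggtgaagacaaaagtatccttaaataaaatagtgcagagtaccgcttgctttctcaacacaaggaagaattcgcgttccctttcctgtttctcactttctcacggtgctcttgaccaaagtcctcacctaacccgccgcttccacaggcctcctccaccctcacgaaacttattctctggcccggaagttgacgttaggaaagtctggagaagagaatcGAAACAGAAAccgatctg
Ifi203: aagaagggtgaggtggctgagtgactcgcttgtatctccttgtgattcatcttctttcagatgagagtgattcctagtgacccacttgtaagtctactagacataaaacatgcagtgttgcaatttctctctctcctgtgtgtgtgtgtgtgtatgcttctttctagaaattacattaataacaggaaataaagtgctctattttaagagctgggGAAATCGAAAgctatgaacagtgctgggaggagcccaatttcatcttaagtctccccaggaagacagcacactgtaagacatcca
Ifi207: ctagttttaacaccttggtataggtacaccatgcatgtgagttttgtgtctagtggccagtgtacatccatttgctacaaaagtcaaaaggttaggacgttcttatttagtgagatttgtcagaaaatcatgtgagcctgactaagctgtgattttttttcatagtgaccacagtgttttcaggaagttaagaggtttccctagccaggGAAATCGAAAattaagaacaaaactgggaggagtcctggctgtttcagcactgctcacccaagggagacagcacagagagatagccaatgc

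In the Isg15 window 3 overlapping matches began at positions -78, -72 and -66 from the start. The Ifi203 and Ifi207 windows each held GAAATCGAAA, at -35 and -41, and the Ifih1 window held GAAACAGAAA at 33 bases after the start. A window was found for 34 of the 42 kept members, the 8 without one being Usp18, Oas2, Rtp4, Dhx58, Parp9, Parp14, Ifi204 and Il15. Searched on both strands, GAAANNGAAA stood in a window of 18 of the 34 members (52.9%), against 1079 of 27025 genes (3.99%). The GAS letters TTCNNNGAA, which may overlap the ISRE letters, stood in 10 of the 34 (29.4%), against 2582 of the 27025 genes (9.55%). These are letter matches and not binding sites.

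The libraries held 15877278 to 17336019 counts and 12954 to 13276 genes above 0, and 11319 genes were tested. The macrophage label was checked: all 13 macrophage markers were in the table and 12 were kept. These 13 summed to 22490 to 24790 TPM in the combination and 22900 to 24290 TPM with oxLDL. With tirzepatide the sum was 21460 to 22300 TPM, against 18110 to 19380 TPM in control. Of the 12 tested, 4 rose and 0 fell with oxLDL against control (2.49% and 2.05% of all genes). With tirzepatide against control 4 rose and 1 fell (2.34% and 1.74%). Of 9 T cell markers 1, the kinase Lck, was kept, Cd2, Cd3e, Cd3g and Cd8b1 were at 0 in all 16 libraries, and the list summed to 9.81 to 12.2 TPM over the 4 groups. Of 5 B cell markers 0 were kept, Ms4a1 was at 0, and the highest sum was 0.734 TPM. Of 7 plasmacytoid dendritic cell markers 4 were kept (Bst2, Tcf4, Cox6a2 and Klk1) and Siglech, a defining one, was at 0. These 7 summed to 142 to 169 TPM in the combination, 144 to 161 TPM with oxLDL, 158 to 171 TPM with tirzepatide and 158 to 181 TPM in control. All 4 kept had a negative log2 change with oxLDL against control. Past the threshold were Bst2, which interferon also induces (-0.30, SE 0.08, edgeR adjusted p = 0.0294, lost without any 1 of 5 libraries), and Klk1, which is also an acinar marker (-3.33, SE 0.93, 0.036). The part of this list in the results was not tested. In Il1b, Plin2, Hmox1 and Slc7a11, which rose with oxLDL, library 2 of the combination stood apart from the other 3 and lay near the tirzepatide libraries. It had 3.91 TPM of Il1b, against 23.2 to 25.9 TPM in the other combination libraries and 3.38 to 4.03 TPM with tirzepatide alone, and 524 TPM of the lipid droplet gene Plin2, against 708 to 785 TPM and 490 to 520 TPM. Hmox1 was at 425 TPM in this library, against 668 to 740 TPM and 409 to 472 TPM. Slc7a11 was at 116 TPM, against 151 to 153 TPM and 110 to 118 TPM. The cause was not tested. Controls 1 and 2 held pancreatic acinar transcripts at a summed 341 and 185 TPM, against 25.1 to 47.2 TPM in controls 3 and 4. The acinar sums were 8.92 to 65.2 TPM in the combination, 7.43 to 42.5 TPM with oxLDL and 8.85 to 71.2 TPM with tirzepatide. Of the 33 acinar markers 30 were found, 17 met the count rule, and Cela3a and Prss1 were at 0. Mitochondrial genes took 8.1 to 10.5% of counts in the combination, 7.69 to 9.32% with oxLDL, 8.18 to 8.67% with tirzepatide and 8.32 to 11.2% in control. Results that rest on library 2 of the combination or on controls 1 and 2 are given with and without them.

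In control the 42 genes spanned 0.586 to 108 TPM. Samhd1, a phosphohydrolase that depletes deoxynucleotides, was the most abundant, followed by Trim25 at 71.2, Adar at 69.7, Slfn2 at 67.3, Lgals3bp at 66.3 and Irf7 at 55.7 TPM. The 10 most abundant genes made up 62.9% of the summed TPM of the 42, and Gbp3, Ifit1 and Ifit2, at 1.11, 0.586 and 0.832 TPM, were the least abundant. Summed over the 42 genes, the level was 866 to 989 TPM in the combination, 838 to 894 TPM with oxLDL, 1091 to 1208 TPM with tirzepatide and 1006 to 1048 TPM in control. The oxLDL range lay below the control range and the tirzepatide range above it, and library 2 held the highest value of the combination. The mean log2(TPM + 1) over the members, set against the control mean, was -0.303, -0.0621, -0.159 and -0.166 in libraries 1 to 4 of the combination and -0.316, -0.335, -0.303 and -0.257 with oxLDL. It was 0.0425, 0.108, 0.197 and 0.102 with tirzepatide, against -0.0318 to 0.0133 in the controls.

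**Figure D1:**
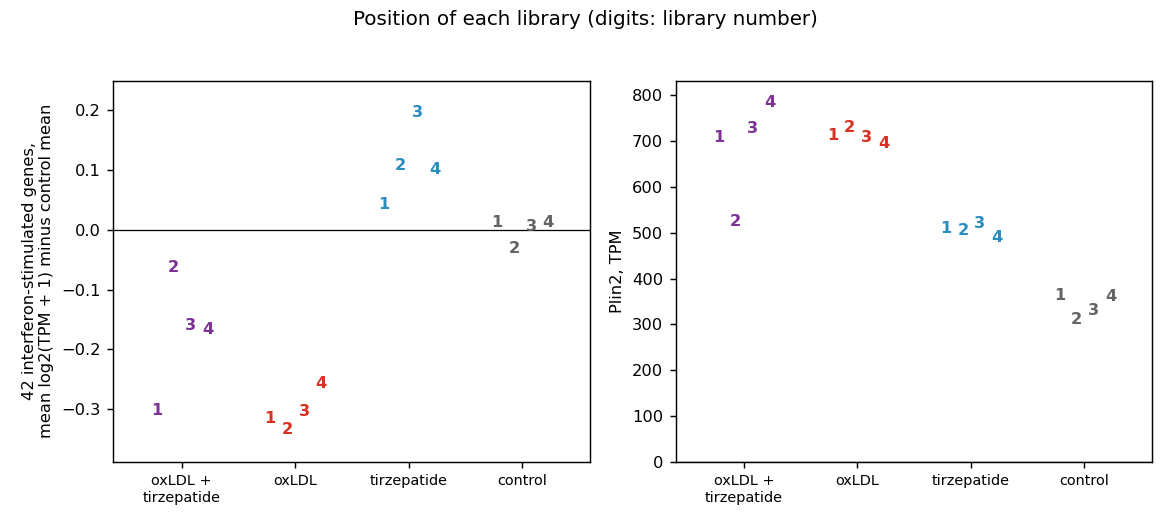
The left panel plots, for each library, the mean log2(TPM + 1) of the 42 interferon-stimulated genes minus the control mean, and the right panel plots the TPM of Plin2, with digits for library numbers. Library 2 of the combination has the highest value of its group in the left panel, -0.0621, and library 1 the lowest, -0.303. In the right panel library 2, at 524 TPM of Plin2, lies apart from the other 3 combination libraries.

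**Figure D2:**
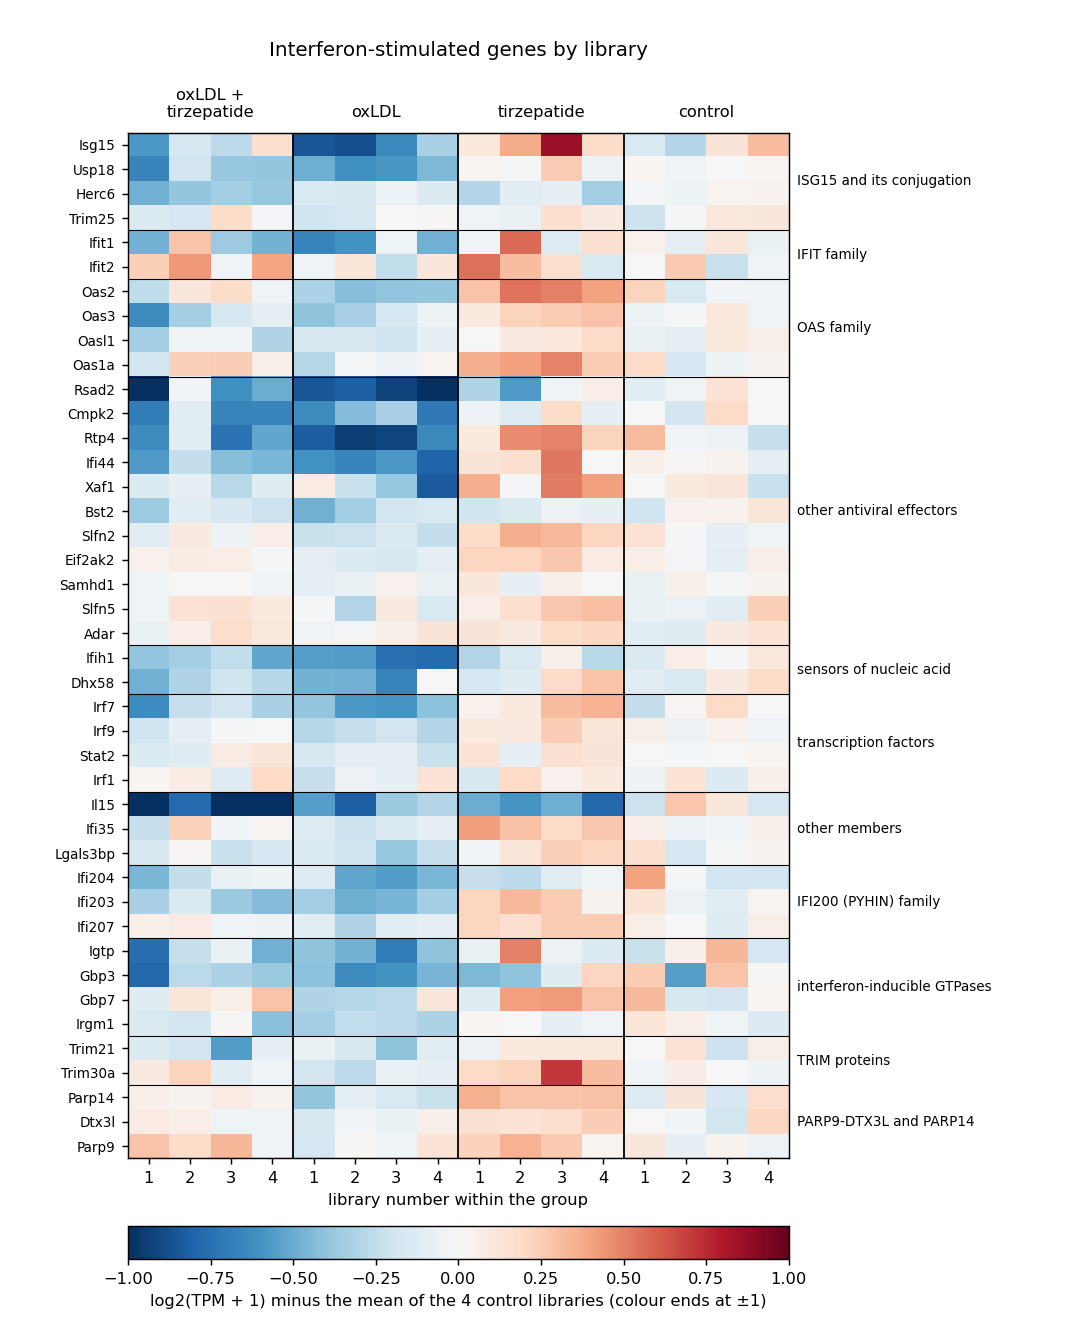
Each row is 1 of the 42 genes, grouped by role, and each column 1 library; colour is log2(TPM + 1) minus the mean of the 4 controls, with the colour scale ending at 1 in either direction. The oxLDL columns are mostly blue and the tirzepatide columns mostly red, with Il15, Herc6, Bst2 and Ifi204 blue in all 3 treated groups.

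OxLDL was first compared with control, to ask what it does to this programme. Interferon-stimulated genes were lower: all 42 had a negative log2 change with a median of -0.29, against a median of -0.0021 over all 11319 genes tested. Of the 42, 15 fell and 0 rose at an adjusted p under 0.05 (edgeR, Benjamini-Hochberg over all genes tested), where 2.05% of all genes fell and 2.49% rose (4.54% in either direction). In 20 of the 42 genes every oxLDL library lay below every control library in TPM, which held for 3.44% of all genes, and in 0 every oxLDL library lay above, against 4.86% of all genes. Those that fell were Rsad2, Cmpk2, Rtp4, Isg15, Ifih1, Ifi44, Il15, Irf7, Usp18, Oas2, Ifi203, Irgm1, Oas3, Bst2 and Irf9. In bulk RNA, fewer cells with these transcripts and less RNA per cell cannot be told apart. Without controls 1 and 2, 10 genes fell and 40 of the 42 changes were negative (median -0.25), without library 2 of the combination 16 fell, and without all 3 of these libraries 12 fell. The 8 genes Ifih1, Ifi44, Usp18, Rtp4, Rsad2, Irf7, Ifi203 and Oas2 passed with any single library left out and under each other setting that tested them.

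The same question was asked beside tirzepatide, by setting the combination against tirzepatide alone, a comparison that shares no library with the first. Of the 42 genes 39 had a negative log2 change, with a median of -0.28 against -0.00035 over all genes; 10 fell and 0 rose, where 0.777% of all genes fell and 0.76% rose (1.54% in either direction). In 19 of the 42 every combination library lay below every tirzepatide library, which held for 4.4% of all genes, and in 0 every combination library lay above (2.17%). The 10 were Ifi203, Ifi44, Oas3, Usp18, Irf7, Rtp4, Oas2, Lgals3bp, Slfn2 and Xaf1. Of these, 7 were also among the 15 that fell with oxLDL alone, 46.7% of the 15 and 70% of the 10, and 39 genes were negative in both comparisons. The same overlap over all genes was not computed, so it cannot be read as particular to the members. Without library 2 of the combination 13 fell (median -0.33), and without it and controls 1 and 2 together 16 fell. The 7 shared genes passed with any single library left out. Lgals3bp, at -0.29 (SE 0.07, edgeR adjusted p = 0.03), was lost without combination library 1, 3 or 4 or tirzepatide library 2, 3 or 4 (edgeR adjusted p = 0.0802 to 0.1366) and with only the groups compared in the fit (0.0543). Slfn2, at -0.26 (SE 0.07, edgeR adjusted p = 0.039), was lost without any 1 of 10 libraries (0.0534 to 0.1549), namely combination libraries 1, 3 and 4, the 4 oxLDL libraries, tirzepatide libraries 2 and 3 and control 2, and with quantile normalization (0.0627).

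**Figure D3:**
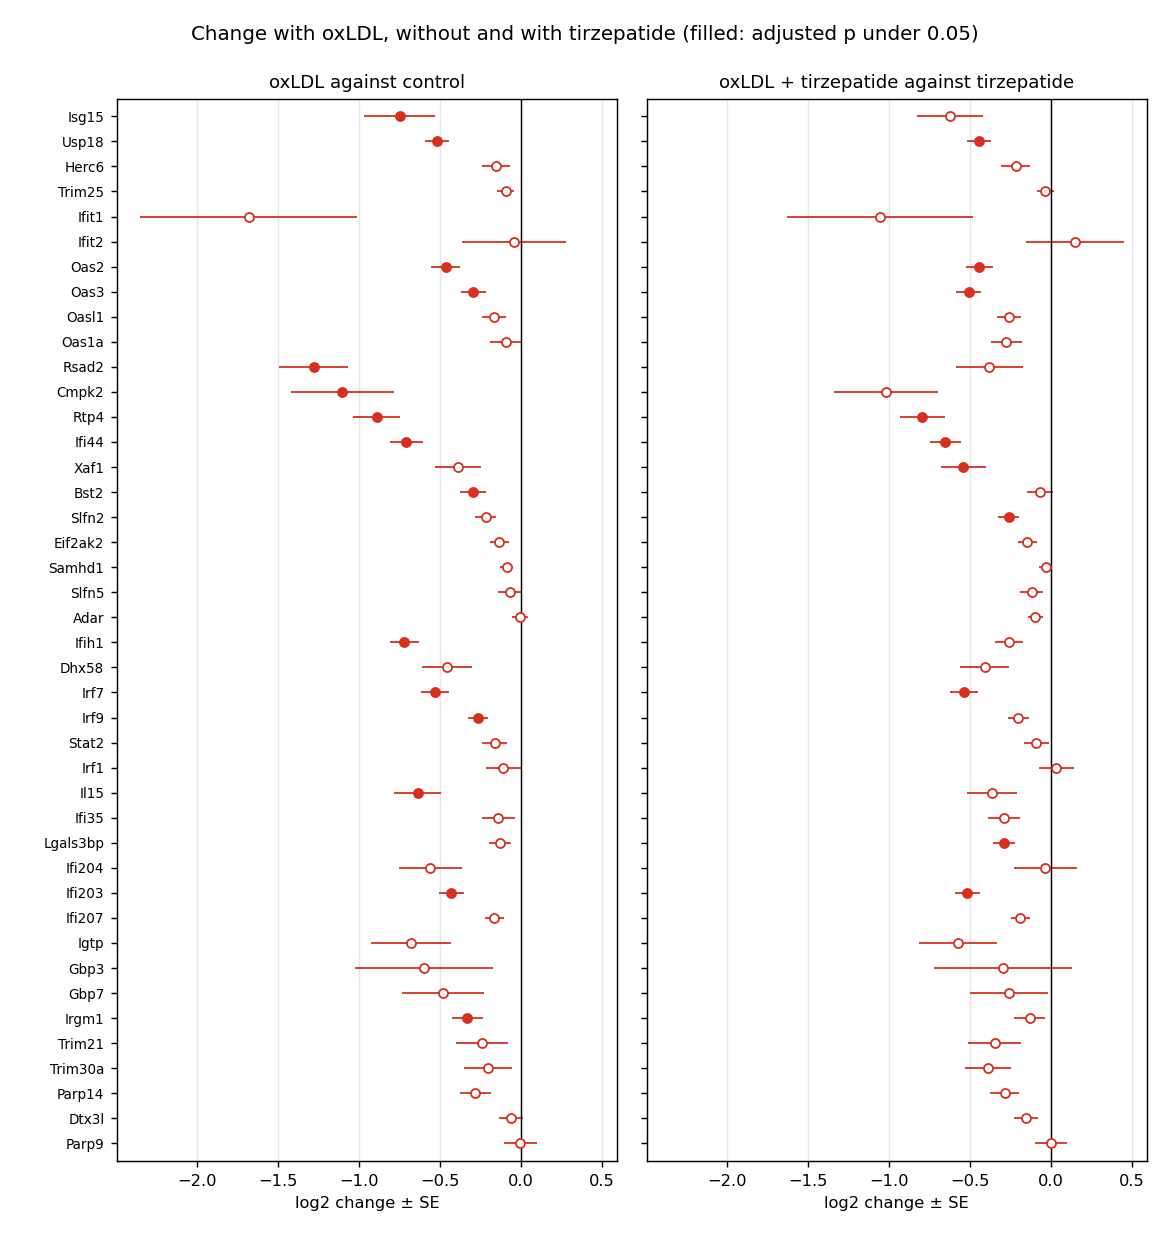
Log2 change with its standard error for each of the 42 genes, oxLDL against control on the left and the combination against tirzepatide on the right; filled points have an adjusted p under 0.05. Points lie left of 0 for all 42 genes in the left panel and for 39 in the right one, with Rsad2 at -1.28 and Ifi44 at -0.71 among the filled points on the left.

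Among the transcription factors, Irf7 and Irf9 fell with oxLDL, while Stat2 and Irf1 did not pass. Irf7, which amplifies type I interferon genes, had 35.4, 47.1, 48.3 and 44.1 TPM in libraries 1 to 4 of the combination and 41.9, 36.9, 36.5 and 41.4 TPM with oxLDL alone. The tirzepatide libraries had 57.01, 59.4, 68.95 and 70.9 TPM, against 46.8, 56.5, 63.9 and 55.7 TPM in control. Every oxLDL library was below every control library, and combination libraries 2 and 3 lay above the lowest control. The log2 change of Irf7 was -0.53 (SE 0.09, edgeR adjusted p = 0.000521) for oxLDL against control and -0.53 (SE 0.09, edgeR adjusted p = 0.00234) for the combination against tirzepatide. Irf9, the DNA-binding subunit of the complex with Stat2, had 25.8, 27.7, 29.5 and 29.8 TPM in the 4 combination libraries and 24.3, 25.2, 26.1 and 24.1 TPM with oxLDL alone. With tirzepatide it had 31.8, 31.7, 35.4 and 32.4 TPM, against 31.04, 28.4, 30.7 and 28.8 TPM in control. The oxLDL and control libraries of Irf9 did not overlap, and the log2 change was -0.27 (SE 0.06, edgeR adjusted p = 0.0124). The call of Irf9 was lost without oxLDL library 4 (edgeR adjusted p = 0.0611). It was also lost without controls 1 and 2, whether or not library 2 of the combination was in, and with a covariate for the acinar share (0.0888 to 0.1009). Stat2 had 8.602 ± 0.3997 TPM with oxLDL and 9.58 ± 0.0997 TPM in control (SD, n = 4 each), a log2 change of -0.16 (SE 0.08, edgeR adjusted p = 0.272). Irf1, an activator of interferon gamma responses, had a log2 change of -0.11 (SE 0.11, edgeR adjusted p = 0.651).

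In the ISG15 system, Isg15 and its protease Usp18 fell with oxLDL. Isg15, a ubiquitin-like protein that is joined to other proteins, had 7.85, 10.7, 9.996 and 13.8 TPM in libraries 1 to 4 of the combination and 6.26, 6.16, 7.45 and 9.53 TPM with oxLDL alone. Under tirzepatide alone the levels were 13.2, 16.1, 22.8 and 13.9 TPM, against 10.9, 9.78, 13.4 and 15.3 TPM in control. The 4 oxLDL libraries were the lowest of their comparison with control, and tirzepatide library 3 was the highest of all 16. The log2 change with oxLDL was -0.75 (SE 0.22, edgeR adjusted p = 0.0451), and the combination against tirzepatide gave -0.62 (SE 0.20, edgeR adjusted p = 0.142). Leaving out control 3 or 4, oxLDL library 1, 2 or 3 or tirzepatide library 2 ended the call of Isg15 (edgeR adjusted p = 0.0557 to 0.1365), as did quantile normalization with limma (0.0613). Usp18, which removes Isg15 from proteins and damps the interferon receptor, had 32.3, 45.2, 39.5 and 39.2 TPM in the 4 combination libraries and 36.5, 33.4, 34.3 and 37.6 TPM with oxLDL alone. Tirzepatide libraries 1 to 4 held 52.4, 51.1, 61.8 and 49.6 TPM, against 52.4, 50.2, 51.8 and 52.4 TPM in control. The controls of Usp18 lay within 50.2 to 52.4 TPM and every library given oxLDL, with or without tirzepatide, lay below them. Its log2 change was -0.52 (SE 0.07, edgeR adjusted p = 8.61e-05) with oxLDL and -0.44 (SE 0.07, edgeR adjusted p = 0.00234) for the combination against tirzepatide. Herc6, the main ligase for Isg15 in mouse, had 4.19 ± 0.213 TPM in the combination, 5.27 ± 0.205 TPM with oxLDL, 4.93 ± 0.507 TPM with tirzepatide and 5.83 ± 0.1799 TPM in control (SD, n = 4 each). Herc6 was lower in the combination than in control, -0.49 (SE 0.09, edgeR adjusted p = 0.00123), and passed in neither single treatment (-0.15, SE 0.09, with oxLDL and -0.27, SE 0.09, with tirzepatide). Trim25, a ubiquitin ligase of the RNA sensor RIG-I, had a log2 change of -0.10 (SE 0.05, edgeR adjusted p = 0.379) with oxLDL.

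The oligoadenylate synthetases make the messenger that activates RNase L when they bind double-stranded RNA, and Oas2 and Oas3 fell with oxLDL. Oas2 had 13.8, 18.2, 19.1 and 16.3 TPM in libraries 1 to 4 of the combination and 13.2, 12.2, 12.5 and 12.5 TPM with oxLDL alone. In tirzepatide libraries the level was 20.6, 24.9, 24.1 and 22.4 TPM, against 19.6, 14.98, 16.4 and 16.2 TPM in control. The oxLDL libraries lay within 12.2 to 13.2 TPM, below all other groups, and all tirzepatide libraries lay above control. Its log2 change was -0.46 (SE 0.09, edgeR adjusted p = 0.00217) with oxLDL and -0.44 (SE 0.09, edgeR adjusted p = 0.00664) for the combination against tirzepatide. Oas3 had 15.6, 19.4, 21.98 and 23.01 TPM in the 4 combination libraries and 18.4, 19.5, 21.7 and 23.7 TPM with oxLDL alone. The tirzepatide libraries had 26.5, 28.9, 29.5 and 30.2 TPM, against 23.8, 24.3, 26.6 and 23.99 TPM in control. The groups of Oas3 did not overlap between oxLDL and control, or between the combination and tirzepatide, with log2 changes of -0.30 (SE 0.08, edgeR adjusted p = 0.025) and -0.51 (SE 0.08, edgeR adjusted p = 0.00108). Without control 2 or 3 or oxLDL library 1, 2 or 3 the first of these did not pass (edgeR adjusted p = 0.0603 to 0.112). Oasl1, which in mouse restrains translation of Irf7, and Oas1a had log2 changes of -0.17 (SE 0.07) and -0.09 (SE 0.10) with oxLDL, which did not pass.

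Of the cytoplasmic RNA sensors, Ifih1 fell with oxLDL. Ifih1, which encodes MDA5, had 6.38, 6.64, 7.18 and 5.75 TPM in libraries 1 to 4 of the combination and 5.61, 5.58, 4.79 and 4.69 TPM with oxLDL alone. With tirzepatide it had 6.89, 7.76, 9.09 and 7.01 TPM, against 7.75, 9.13, 8.54 and 9.41 TPM in control. All oxLDL libraries lay below all libraries of the other 3 groups, and the combination lay between oxLDL and control. Its log2 change was -0.72 (SE 0.09, edgeR adjusted p = 1.3e-05) with oxLDL, with the smallest adjusted p of the 42 genes, and -0.26 (SE 0.09, edgeR adjusted p = 0.159) for the combination against tirzepatide. Dhx58, which encodes the regulator LGP2, had 4.62, 5.38, 5.83 and 5.45 TPM in the 4 combination libraries and 4.67, 4.64, 3.95 and 6.84 TPM with oxLDL alone. Under tirzepatide alone the levels were 5.98, 6.21, 7.94 and 8.55 TPM, against 6.24, 6.04, 7.33 and 7.91 TPM in control. OxLDL library 4 overlapped the controls of Dhx58 while the other 3 lay below them, and the log2 change was -0.46 (SE 0.15, edgeR adjusted p = 0.0941).

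The other antiviral effectors held the 2 largest changes that passed with oxLDL, those of Rsad2 and Cmpk2; Ifit1, at -1.68 (SE 0.67), had a larger one that did not pass. The values of Rsad2, viperin, which turns CTP into a chain terminator, were chosen for listing after they were seen. It had 1.52, 3.99, 2.31 and 2.59 TPM in libraries 1 to 4 of the combination and 1.81, 1.88, 1.67 and 1.39 TPM with oxLDL alone. Tirzepatide libraries 1 to 4 held 3.11, 2.44, 3.93 and 4.31 TPM, against 3.697, 3.95, 4.61 and 4.097 TPM in control. All 4 oxLDL libraries lay below all controls, and library 2 of the combination, at 3.99 TPM, lay within the controls while the other 3 lay at 1.52 to 2.59 TPM. The log2 change of Rsad2 was -1.28 (SE 0.21, edgeR adjusted p = 0.000503) with oxLDL. Cmpk2, the neighbouring gene for a mitochondrial nucleotide kinase, had 0.6195 ± 0.203 TPM with oxLDL and 1.33 ± 0.254 TPM in control (SD, n = 4 each), a log2 change of -1.10 (SE 0.32, edgeR adjusted p = 0.0455). The call of Cmpk2 was lost without any 1 of 11 libraries (edgeR adjusted p = 0.0501 to 0.1447), namely the 4 controls, the 4 tirzepatide libraries and oxLDL libraries 1, 2 and 4, without controls 1 and 2, with a covariate for the acinar share and with quantile normalization (0.0623 to 0.0848).

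Rtp4, a receptor chaperone, had 21.2, 30.9, 19.5 and 22.9 TPM in the 4 combination libraries and 18.3, 16.9, 17.2 and 20.96 TPM with oxLDL alone. In tirzepatide libraries the level was 35.8, 46.7, 47.3 and 39.1 TPM, against 41.8, 32.7, 31.9 and 28.2 TPM in control. The oxLDL libraries were below all controls and the tirzepatide libraries above all combination libraries. Its log2 change was -0.89 (SE 0.15, edgeR adjusted p = 0.000382) with oxLDL and -0.79 (SE 0.14, edgeR adjusted p = 0.00268) for the combination against tirzepatide. Ifi44 had 13.6, 17.3, 15.04 and 14.7 TPM in libraries 1 to 4 of the combination and 13.2, 12.7, 13.5 and 11.4 TPM with oxLDL alone. The tirzepatide libraries had 22.7, 23.1, 30.1 and 20.7 TPM, against 21.4, 20.7, 21.1 and 19.2 TPM in control. Every library given oxLDL, with or without tirzepatide, lay below every library without it, and the log2 changes were -0.71 (SE 0.10, edgeR adjusted p = 8.25e-05) with oxLDL and -0.65 (SE 0.10, edgeR adjusted p = 0.00106) for the combination against tirzepatide. Bst2, tetherin, which holds budding viruses at the cell surface, had a log2 change of -0.30 (SE 0.08, edgeR adjusted p = 0.0294) with overlapping libraries. The call of Bst2 was lost without control 2, 3 or 4 or oxLDL library 1 or 2 (edgeR adjusted p = 0.0645 to 0.1225) and without controls 1 and 2 (0.0551). Xaf1, a partner of the apoptosis inhibitor XIAP, did not pass with oxLDL (-0.39, SE 0.14, edgeR adjusted p = 0.136) and passed for the combination against tirzepatide (-0.54, SE 0.14, edgeR adjusted p = 0.0468), a call lost without any 1 of 11 libraries (0.0528 to 0.1773): combination libraries 1, 3 and 4, oxLDL libraries 2 and 3, the 4 tirzepatide libraries and controls 2 and 3. Xaf1 was also lost with only the groups compared in the fit (0.0600). Eif2ak2, the RNA-activated kinase PKR, Samhd1, Slfn5 and the RNA editing enzyme Adar had log2 changes with oxLDL of -0.13 (SE 0.06), -0.09 (SE 0.04), -0.07 (SE 0.07) and -0.01 (SE 0.05), none of which passed.

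In the IFI200 family of DNA-binding proteins, Ifi203 fell with oxLDL and its relatives did not pass. Ifi203 had 43.5, 49.4, 41.98 and 40.3 TPM in the 4 combination libraries and 43.01, 38.7, 39.3 and 42.99 TPM with oxLDL alone. With tirzepatide it had 63.5, 68.7, 65.3 and 55.9 TPM, against 60.1, 52.4, 50.8 and 55.8 TPM in control. All oxLDL libraries were below all controls and all combination libraries below all tirzepatide libraries, with log2 changes of -0.43 (SE 0.08, edgeR adjusted p = 0.000932) and -0.51 (SE 0.08, edgeR adjusted p = 0.00106). Ifi207, whose window carries the same 10 letters, had 52.5, 53.7, 49.1 and 48.9 TPM in libraries 1 to 4 of the combination and 46.9, 40.9, 46.96 and 47.4 TPM with oxLDL alone. Under tirzepatide alone the levels were 58.9, 56.9, 60.6 and 60.7 TPM, against 52.8, 50.9, 46.4 and 52.7 TPM in control. Its oxLDL and control libraries overlapped, with oxLDL library 2 the lowest of the 16, and the log2 change was -0.17 (SE 0.06, edgeR adjusted p = 0.117). Ifi204 had a log2 change of -0.56 (SE 0.20, edgeR adjusted p = 0.109). These genes have near-identical copies, so how the authors' counting split reads among them is uncertain, and the same holds for the Oas, Gbp, Slfn and Trim30 genes.

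Among the interferon-inducible GTPases, which act on vacuoles that hold microbes, 1 of the 4 kept fell. Irgm1 had 14.4, 13.9, 16.1 and 11.7 TPM in the 4 combination libraries and 12.4, 13.3, 13.1 and 12.6 TPM with oxLDL alone. Tirzepatide libraries 1 to 4 held 16.2, 16.03, 14.8 and 15.4 TPM, against 17.5, 16.6, 15.5 and 14.4 TPM in control. The oxLDL libraries lay within 12.4 to 13.3 TPM, below all controls, and the log2 change was -0.33 (SE 0.10, edgeR adjusted p = 0.0451). The call of Irgm1 was lost without any 1 of 9 libraries (edgeR adjusted p = 0.0525 to 0.1271), namely controls 1, 2 and 3, the 4 oxLDL libraries and tirzepatide libraries 1 and 2. It was also lost without controls 1 and 2, with a covariate for the mitochondrial or the acinar share, and with quantile normalization (0.0873 to 0.4113). Igtp, Gbp3 and Gbp7, at 1.11 to 3.34 TPM in control, had log2 changes of -0.68 (SE 0.25), -0.60 (SE 0.43) and -0.48 (SE 0.25).

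Of the 8 genes in the remaining groups described here, Il15 fell with oxLDL and the other 7 did not pass. Il15, the cytokine that sustains natural killer and memory T cells, had 5.57, 7.98, 5.89 and 6.45 TPM in libraries 1 to 4 of the combination and 9.54, 7.78, 10.9 and 11.6 TPM with oxLDL alone. In tirzepatide libraries the level was 9.92, 9.23, 9.98 and 7.94 TPM, against 12.3, 17.7, 15.69 and 12.7 TPM in control. All libraries of the 3 treated groups lay below all controls, and the log2 change with oxLDL was -0.64 (SE 0.14, edgeR adjusted p = 0.00867). The call of Il15 was lost without control 2, the highest library (edgeR adjusted p = 0.0555), and without controls 1 and 2 (0.0648 to 0.0887, whether or not library 2 of the combination was in). Ifi35, a leucine zipper protein, had 14.3, 20.1, 16.6 and 17.3 TPM in the 4 combination libraries and 15.4, 14.4, 15.3 and 15.96 TPM with oxLDL alone. The tirzepatide libraries had 22.9, 21.03, 19.5 and 20.6 TPM, against 17.6, 16.2, 16.4 and 17.6 TPM in control. OxLDL and control libraries did not overlap, and the log2 change was -0.14 (SE 0.10, edgeR adjusted p = 0.503). Dtx3l, a ubiquitin ligase that pairs with Parp9, had 13.98, 13.9, 12.8 and 12.8 TPM in libraries 1 to 4 of the combination and 11.7, 12.9, 12.5 and 13.7 TPM with oxLDL alone. With tirzepatide it had 14.7, 14.6, 14.98 and 15.8 TPM, against 13.2, 12.9, 11.49 and 15.4 TPM in control. Parp9 had 17.3, 16, 17.9 and 13.7 TPM in the 4 combination libraries and 12.3, 14.1, 13.7 and 15.4 TPM with oxLDL alone. Under tirzepatide alone the levels were 16.6, 18.1, 16.9 and 14.3 TPM, against 15.2, 13.1, 14.3 and 13.4 TPM in control. OxLDL and control libraries overlapped for both, and the log2 changes with oxLDL were -0.06 (SE 0.07) and -0.0043 (SE 0.10). Ifit1 and Ifit2, which bind viral RNA ends, were at 0 to 1.67 TPM across all 16 libraries, and had log2 changes of -1.68 (SE 0.67) and -0.04 (SE 0.32). Trim21, a cytosolic antibody receptor, and Trim30a had log2 changes of -0.24 (SE 0.16) and -0.21 (SE 0.15).

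**Figure D4:**
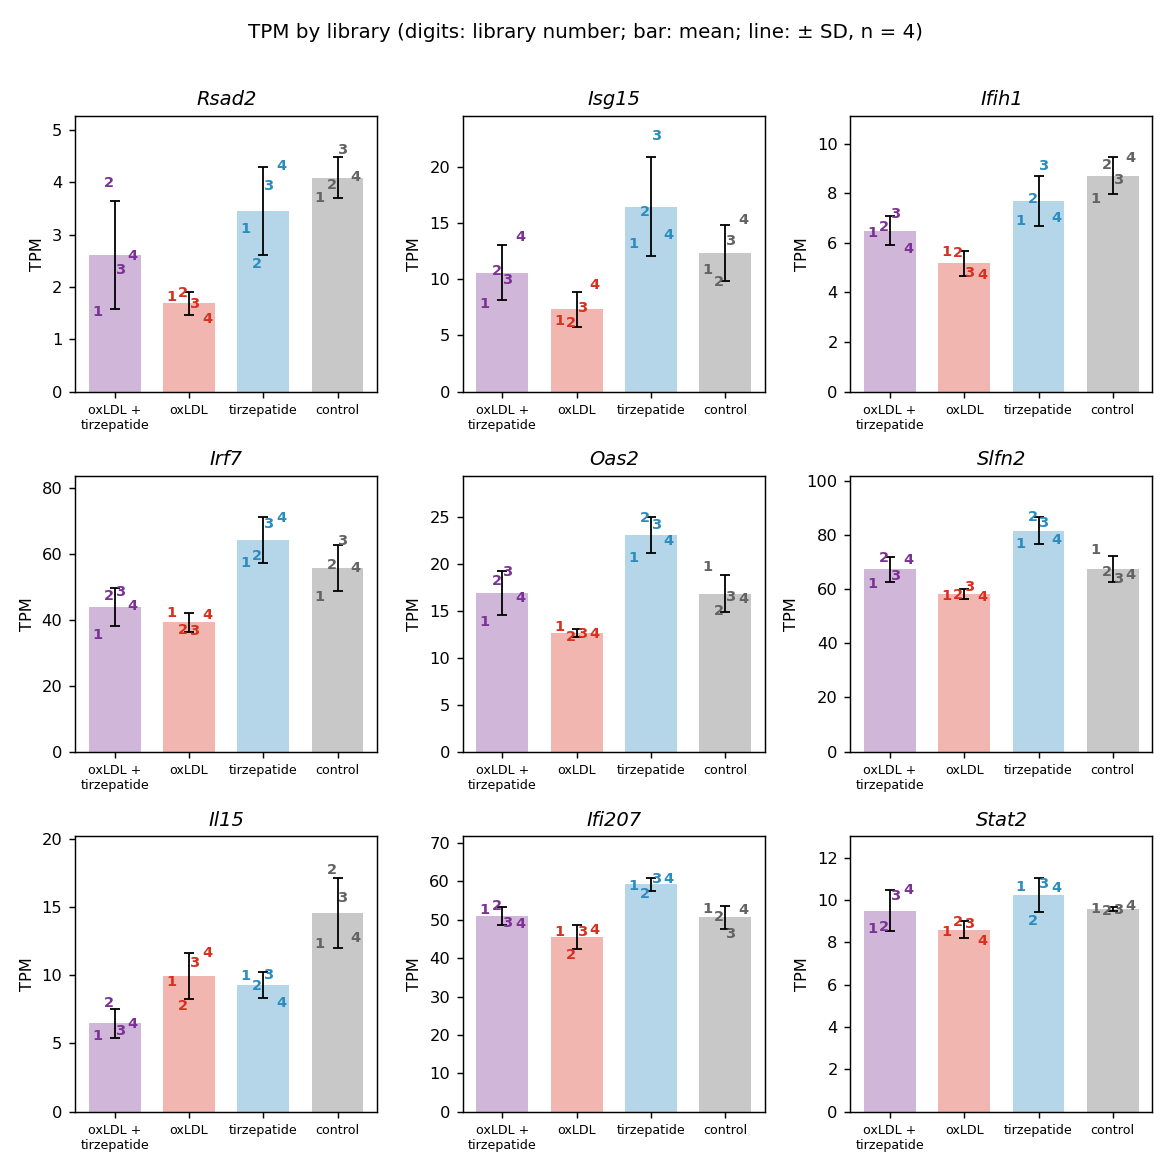
TPM of 9 interferon-stimulated genes by group; digits are library numbers, bars are means and lines are the SD over 4 libraries, and Rsad2 and Stat2 were picked after their values were seen. Rsad2 and Ifih1 are lower in all oxLDL libraries than in all controls, Oas2 and Slfn2 are higher in all tirzepatide libraries than in all controls, and Il15 is lower in all 3 treated groups.

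Tirzepatide alone was compared with control next. Of the 42 genes 30 had a positive log2 change, with a median of 0.16 against -0.00014 over all genes; 5 rose and 1 fell, where 2.34% of all genes rose and 1.74% fell (4.08% in either direction). In 9 genes every tirzepatide library lay above every control, which held for 7.27% of all genes; these were Oas1a, Oas2, Parp14, Slfn2, Irf9, Ifi35, Ifi207, Trim30a and Eif2ak2, and in Il15 and Herc6 every tirzepatide library lay below, which held for 2.68%. Those that rose were Oas2, Oas1a, Parp14, Slfn2 and Lgals3bp, and Il15 fell. None of the 6 calls held without each library in turn: 0 genes passed without control 2, 1 without control 3, 3 without control 4, 1 without tirzepatide library 2 and 1 without tirzepatide library 3. Without library 2 of the combination 5 rose and 1 fell. Without controls 1 and 2 together 4 rose and 0 fell, without these and library 2 of the combination 5 rose and 0 fell, with only the groups compared in the fit 3 passed, and 10 passed with a covariate for the mitochondrial share. The shares of all genes above are from the main fit and do not apply to the counts under these other settings.

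Oas1a had 21.2, 28.8, 28.8 and 25.3 TPM in libraries 1 to 4 of the combination and 19.7, 23.9, 23.2 and 24.6 TPM with oxLDL alone. Tirzepatide libraries 1 to 4 held 31.5, 32.4, 34.5 and 29.04 TPM, against 27.7, 21.3, 23.3 and 24.8 TPM in control. Every tirzepatide library was above every control, and the log2 change with tirzepatide was 0.36 (SE 0.10, edgeR adjusted p = 0.0312). For Oas2, whose library values are given above, it was 0.37 (SE 0.09, edgeR adjusted p = 0.0152). Parp14, which adds single ADP-ribose units to proteins, had 4.46, 4.41, 4.604 and 4.399 TPM in the 4 combination libraries and 3.02, 3.92, 3.75 and 3.53 TPM with oxLDL alone. In tirzepatide libraries the level was 5.75, 5.42, 5.42 and 5.47 TPM, against 3.82, 4.76, 3.703 and 4.96 TPM in control. The tirzepatide libraries lay within 5.42 to 5.75 TPM, above all others, with a log2 change of 0.33 (SE 0.09, edgeR adjusted p = 0.0402). Slfn2, a Schlafen protein that keeps immune cells quiescent, had 62, 71.5, 64.8 and 70.5 TPM in libraries 1 to 4 of the combination and 57.5, 57.7, 60.7 and 56.9 TPM with oxLDL alone. The tirzepatide libraries had 76.5, 86.7, 84.5 and 78.3 TPM, against 74.4, 66.2, 63.5 and 65.1 TPM in control. Tirzepatide libraries were above all controls and oxLDL libraries below them; the log2 change was 0.25 (SE 0.06, edgeR adjusted p = 0.0319) with tirzepatide and -0.22 (SE 0.07, edgeR adjusted p = 0.0596) with oxLDL.

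Lgals3bp, a secreted glycoprotein that binds galectin-3, had 59.04, 66.4, 56.3 and 58.8 TPM in the 4 combination libraries and 59.6, 57.3, 50.5 and 56.3 TPM with oxLDL alone. With tirzepatide it had 64.8, 71.98, 78.2 and 76.7 TPM, against 73.9, 58.4, 65.1 and 67.7 TPM in control. Tirzepatide and control libraries of Lgals3bp overlapped, with controls 1, 3 and 4 inside the tirzepatide range, and the log2 change was 0.25 (SE 0.07, edgeR adjusted p = 0.0426). For Il15 the log2 change with tirzepatide was -0.67 (SE 0.14, edgeR adjusted p = 0.00967). Near the threshold without passing were Ifi207 (0.19, SE 0.06, edgeR adjusted p = 0.068), Trim30a (0.44, SE 0.14, edgeR adjusted p = 0.0785), Herc6 (-0.27, SE 0.09, edgeR adjusted p = 0.0806), Ifi35 (0.30, SE 0.10, edgeR adjusted p = 0.0877) and Eif2ak2 (0.18, SE 0.06, edgeR adjusted p = 0.0949). The calls were lost without control 2 or 3 or tirzepatide library 2 or 3 for Oas2 (edgeR adjusted p = 0.0522 to 0.0877), and for Oas1a also without control 4 or tirzepatide library 1 (0.0597 to 0.136). Slfn2 was lost without control 2, 3 or 4 or tirzepatide library 2 or 3 (0.0847 to 0.1262) and Il15 without control 2 (0.0620). Parp14 was lost without any 1 of 10 libraries (0.0504 to 0.1452): combination library 4, oxLDL libraries 3 and 4, the 4 tirzepatide libraries and controls 1, 2 and 3. Lgals3bp was lost without any 1 of 10 as well (0.0540 to 0.1699): combination library 4, oxLDL libraries 1, 2 and 4, tirzepatide libraries 2, 3 and 4 and controls 2, 3 and 4. Without controls 1 and 2, Il15, Parp14 and Lgals3bp did not pass. With only the groups compared in the fit Parp14, Lgals3bp and Slfn2 did not pass, with quantile normalization Lgals3bp and Slfn2 did not, and with a covariate for the acinar share Parp14 and Lgals3bp did not (0.0504 to 0.2102).

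The effect of tirzepatide beside oxLDL, the comparison of the combination with oxLDL alone, gave 0 called genes among the 42 by edgeR, where 0.0353% of all genes rose and 0% fell. Without adjustment 15 of the 42 had p under 0.05, and DESeq2 called 1, Oas2 (0.39, SE 0.09, edgeR adjusted p = 0.173 in the main test and adjusted p = 0.0234 by DESeq2). The log2 changes were positive for 37 of the 42, with a median of 0.15 against -0.0036 over all genes. In Eif2ak2, Ifi207, Ifi44, Ifih1, Oas2, Parp14 and Slfn2 every combination library lay above every oxLDL library, which held for 3.08% of all genes, and in Herc6 every combination library lay below, which held for 1.67%. The log2 changes of the first 4 of these were 0.16 (SE 0.06), 0.16 (SE 0.06), 0.26 (SE 0.10) and 0.31 (SE 0.09), those of Parp14 and Slfn2 0.33 (SE 0.09) and 0.20 (SE 0.07), and that of Herc6 -0.33 (SE 0.09). Without library 2 of the combination 0 genes passed, 34 of the 42 changes were positive (median 0.13) and 11 had an unadjusted p under 0.05. Without that library the log2 change of Rsad2 was 0.33 (SE 0.21), against 0.63 (SE 0.22) with it, while those of Oas2 and Parp14 were 0.37 (SE 0.10) and 0.33 (SE 0.10). Ifit1 had -0.08 (SE 0.79) without that library and 1.00 (SE 0.72) with it, and Cmpk2 -0.46 (SE 0.34) and 0.02 (SE 0.35), so the sign of both rested on library 2. Without controls 1 and 2, 1 gene, Oas2, passed (edgeR adjusted p = 0.0370), and 1 passed without control 1 alone and without combination library 1 alone.

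**Figure D5:**
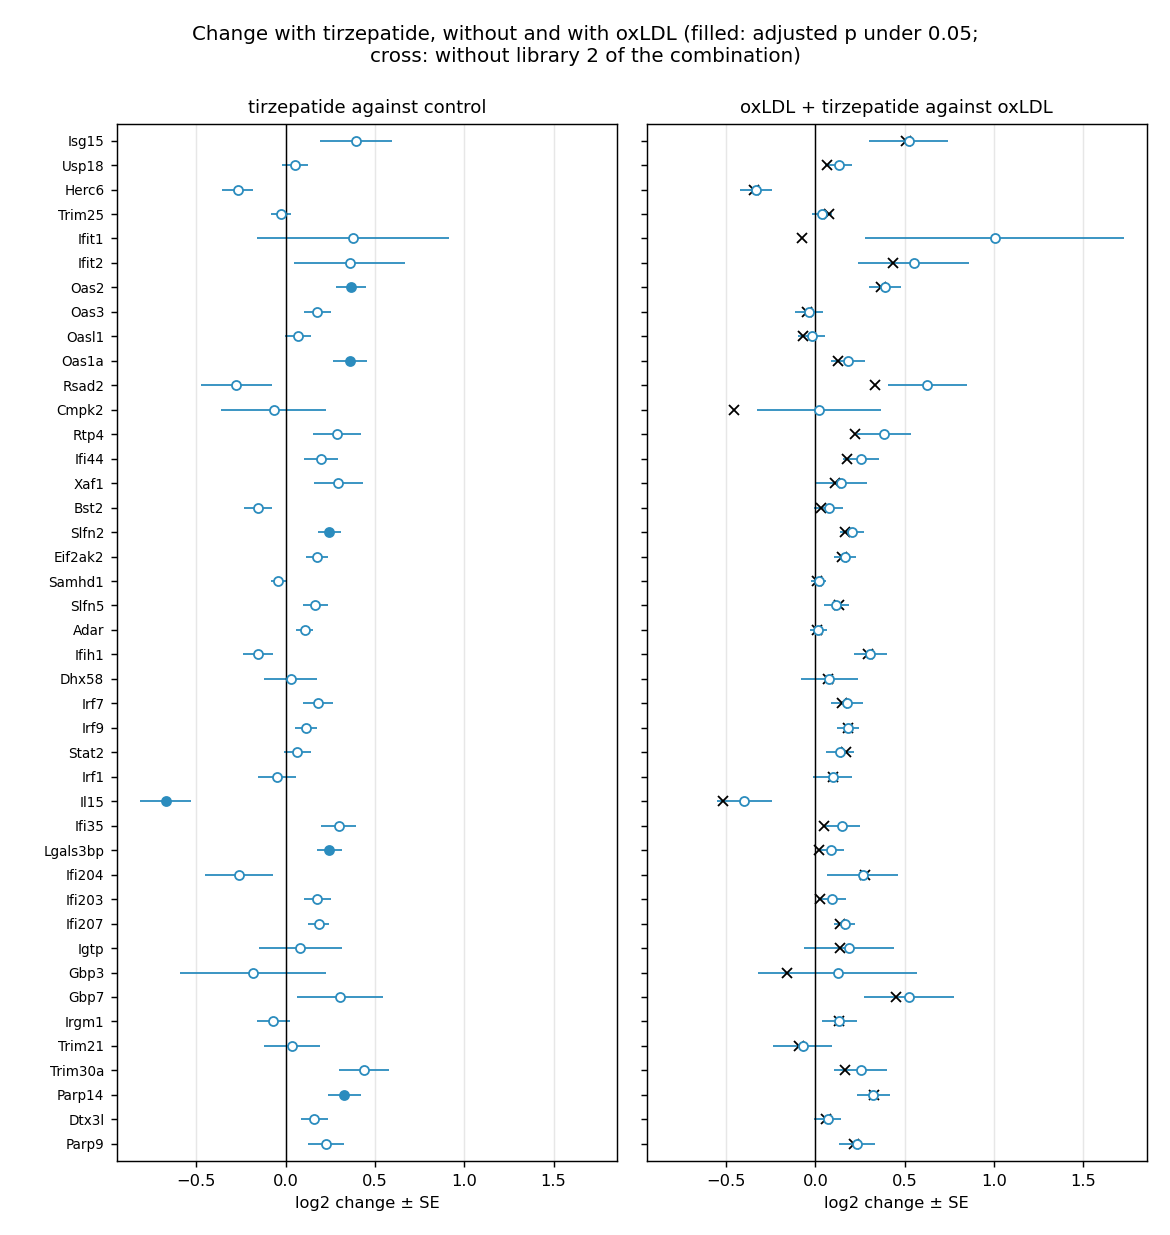
Log2 change with its standard error for each of the 42 genes, tirzepatide against control on the left and the combination against oxLDL on the right, where a cross gives the value without library 2 of the combination; filled points have an adjusted p under 0.05. The 6 filled points are on the left, 5 to the right of 0 and Il15 to the left of it, and Ifit1, Cmpk2 and Rsad2 have the crosses farthest from their points on the right.

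Averaged over both oxLDL states, which sets 8 libraries with tirzepatide against 8 without it, 6 of the 42 genes rose and 2 fell, where 1.8% of all genes rose and 1.48% fell (3.29% in either direction). Oas2 (0.38, SE 0.06, edgeR adjusted p = 0.00151), Parp14 (0.33, SE 0.07, edgeR adjusted p = 0.00711) and Slfn2 (0.23, SE 0.05, edgeR adjusted p = 0.00856) rose, and Il15 (-0.53, SE 0.11, edgeR adjusted p = 0.00629) and Herc6 (-0.30, SE 0.06, edgeR adjusted p = 0.00907) fell, and these 5 passed with any single library left out. Ifi207 (0.18, SE 0.04, edgeR adjusted p = 0.0197), Eif2ak2 (0.17, SE 0.04, edgeR adjusted p = 0.0273) and Oas1a (0.27, SE 0.07, edgeR adjusted p = 0.0274) also rose. Without library 2 of the combination 4 rose and 2 fell, Eif2ak2 and Oas1a being the genes lost (edgeR adjusted p = 0.0508 and 0.0608). Ifi207 was lost without oxLDL library 2 (0.0503), Eif2ak2 without any 1 of 8 libraries (0.0508 to 0.0703) and Oas1a without any 1 of 9 (0.0517 to 0.0780). Without control 1, 15 genes passed, a count to which the shares of all genes above, from the main fit, do not apply. Of the 42 changes 35 were positive, with a median of 0.14.

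Whether tirzepatide altered the oxLDL effect was asked with the interaction, the oxLDL effect beside tirzepatide minus the oxLDL effect without it. By edgeR 0 of the 42 genes passed, where 0.0442% of all genes were negative and 0.0265% positive at an adjusted p under 0.05 (0.0707% in either direction), and by DESeq2 0 passed. At an unadjusted p under 0.05 there were 2: Rsad2 (0.90, SE 0.30, edgeR adjusted p = 0.273) and Ifih1 (0.46, SE 0.13, edgeR adjusted p = 0.174). Without library 2 of the combination these were 0.61 (SE 0.27) and 0.45 (SE 0.13). Over the 42 genes 24 interactions were positive, with a median of 0.05 against -0.0036 over all genes and standard errors of 0.06 to 0.89; without library 2 of the combination 20 were positive and the median was -0.01.

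Against control, the combination of both agents had 31 of the 42 genes with a negative log2 change (median -0.19); 11 fell and 0 rose, where 4.25% of all genes fell and 4.69% rose (8.94% in either direction). In 8 genes every combination library lay below every control, which held for 3.27% of all genes, and in 0 every combination library lay above (5.71%). Il15 had the lowest adjusted p, with a log2 change of -1.03 (SE 0.15, edgeR adjusted p = 9.03e-05). The others that fell were Herc6, Usp18, Ifih1, Ifi44, Ifi203, Oas3, Irf7, Rtp4, Cmpk2 and Rsad2, and Usp18 had -0.39 (SE 0.07, edgeR adjusted p = 0.00169). Isg15, Oas2, Irgm1, Bst2 and Irf9 fell with oxLDL alone and did not pass in the combination against control, while the other genes that fell with oxLDL alone passed again. Among those that did not pass, Isg15 and Oas2 had log2 changes of -0.23 (SE 0.21, edgeR adjusted p = 0.545) and -0.07 (SE 0.09, edgeR adjusted p = 0.658). These comparisons share the controls. Without library 2 of the combination 11 fell, without controls 1 and 2 there were 8, and without combination library 1 there were 7. Rsad2, at -0.65 (SE 0.20, edgeR adjusted p = 0.0441), was lost without any 1 of 12 libraries, combination library 2 not among them (edgeR adjusted p = 0.0501 to 0.1663), Rtp4 without control 1 or 2 or combination library 1, 3 or 4 (0.0598 to 0.0787), Cmpk2 without control 3 or 4 or combination library 1, 3 or 4 (0.0529 to 0.1175) and Irf7 without control 3 or combination library 1 (0.0638 to 0.0694). Rsad2, Rtp4 and Cmpk2 were also lost with only the groups compared in the fit, and Rsad2, Rtp4 and Ifi203 without controls 1 and 2 (0.0505 for Ifi203).

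The genes upstream of the members were read from lists chosen with earlier results of these data known. Of 15 interferon ligand genes 0 were kept by the count rule and 14, Ifnb1 and Ifng included, had 0 counts in all 16 libraries, which allows up to 0.173 to 0.189 CPM in a library at 3 counts, for counting error only. Of 11 receptor, kinase and STAT genes tested, 2 rose and 0 fell with oxLDL against control (2.49% and 2.05% of all genes), Stat3 (0.19, SE 0.05, edgeR adjusted p = 0.0293) and the receptor chain Il10rb (0.19, SE 0.06, 0.0487). The receptor chains Ifnar1 and Ifnar2 each had 0.03 (SE 0.05) with oxLDL. The receptor kinases Jak1 and Tyk2 had 0.09 (SE 0.04, edgeR adjusted p = 0.24) and -0.18 (SE 0.06, 0.0875). With tirzepatide alone Stat3 rose (0.20, SE 0.05, edgeR adjusted p = 0.0256). The calls of Stat3 were lost without any 1 of 6 libraries in each comparison (edgeR adjusted p = 0.0546 to 0.1505 with oxLDL and 0.0585 to 0.1279 with tirzepatide), controls 1 and 2 among them, and without both of these controls, and that of Il10rb without any 1 of 12 libraries (0.0511 to 0.1637).

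Of 20 tested genes that sense nucleic acid and signal toward interferon, 2 fell and 1 rose with oxLDL, where 2.05% of all genes fell and 2.49% rose. Rigi, the RNA sensor RIG-I, fell (log2 change -0.28, SE 0.05, edgeR adjusted p = 0.00212), as did Ikbke, a kinase that acts on interferon regulatory factors (-0.60, SE 0.13, 0.00536), and the endosomal receptor Tlr7 rose (0.36, SE 0.10, 0.0303). Irf3, the factor that turns on interferon beta, had 0.01 (SE 0.08) and the DNA-sensing adaptor Sting1 had 0.03 (SE 0.07). In the combination against tirzepatide 1 of the 20, Rigi, fell again (-0.29, SE 0.05, edgeR adjusted p = 0.00525), where 0.777% of all genes fell. With tirzepatide alone 1 of the 20, Ticam2, an adaptor of Toll-like receptor signalling, rose (0.28, SE 0.06, edgeR adjusted p = 0.00727), where 2.34% of all genes rose. Tlr7 was lost without control 2 or 3 or oxLDL library 1, 2 or 4 (0.0539 to 0.1621) and without controls 1 and 2. Of 8 tested negative regulators 1, the phosphatase Ptpn6, fell with oxLDL (-0.27, SE 0.06, edgeR adjusted p = 0.0124). The feedback inhibitor Socs1 was below the filter and was not tested.

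Of 67 further interferon-stimulated genes tested outside the 42, 8 fell and 0 rose with oxLDL (2.05% and 2.49% of all genes), 54 were negative, and the median was -0.11. The 4 largest changes that passed were Ccl5, a chemokine for T cells (-1.22, SE 0.18), the checkpoint ligand Cd274 (-0.60, SE 0.17), Ube2l6, the conjugating enzyme for Isg15 (-0.57, SE 0.09), and Irgm2 (-0.54, SE 0.13). In the combination against tirzepatide 5 of the 67 fell and 0 rose (0.777% and 0.76% of all genes). With tirzepatide alone 1 rose and 2 fell, Ube2l6 (-0.33, SE 0.09) and Ccl5 (-0.64, SE 0.17), a count near the background, since 4.08% of all genes were called in either direction. With oxLDL, Cd274 was lost without control 1, 2 or 3 or oxLDL library 1 or 2 (edgeR adjusted p = 0.0571 to 0.1378) and Irgm2 without control 1 or oxLDL library 2 or 4 (0.0511 to 0.0711), and both without controls 1 and 2. The calls of Ube2l6 and Ccl5 with tirzepatide were lost without any 1 of 6 and any 1 of 7 libraries (0.0531 to 0.112 and 0.0505 to 0.1262), and without controls 1 and 2.

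Members with the ISRE letters in a promoter window were set beside those without, as a description. With oxLDL against control 7 of the 18 members with the letters fell (median -0.32) and 4 of the 16 without (median -0.15). Among all other tested genes, 11 of 302 with the letters fell (3.64%, median -0.0034) and 154 of 8552 without them (1.80%, median 0.00068). In the combination against tirzepatide 2 of 18 members with the letters fell (11.1%, median -0.29) and 5 of 16 without (31.2%, median -0.24). All 18 members with the letters and 14 of the 16 without had a negative log2 change there. Among all other tested genes in that comparison, 5 of 302 with the letters fell (1.66%, median 0.0058) and 44 of 8552 without them (0.51%, median -8.8e-05). The order of these percentages was opposite to that of the members, while the member medians kept the order they had with oxLDL against control.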

How the data were processed

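RNA sequencing of RAW264.7 cells gave 16 libraries, 4 in each of 4 groups taken from the submitters' labels. For each gene the authors deposited expected counts, estimates that need not be whole, and TPM, a level scaled for gene length and depth. Tools named, without roles, in the submitters' processing notes are RSEM, StringTie 1.3.1, Bowtie2 2.2.8 and fastp 0.18.0, with the GRCm39 build; strandedness is not given in the sources used here. Depth was 15877278 to 17336019 counts per library, which limits precision for members with few counts.

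Expected counts were rounded and fitted in 1 edgeR 4.0.16 quasi-likelihood model (R 4.3.3) of all 16 libraries, with TMM scaling and filterByExpr at a minimum count of 10. P-values were adjusted by Benjamini-Hochberg over 11319 genes in each comparison, and genes were called at an adjusted p under 0.05. Log2 changes carry the SE from the F statistic. TPM served for levels and overlap of libraries, with a pseudocount of 1 where averaged as log2. DESeq2 1.42.0, limma 3.58.1, other filters, covariates, a replicate block and leaving out libraries were alternatives. The shares of all genes called are from the main fit and do not apply to member counts under the alternatives. The fit was tested on simulated data.

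The members and lists were chosen with earlier results of these data known. By rule, values in every library were given for up to 2 members per role group whose oxLDL change was largest, where either group averaged 5 TPM or more, and for members called with tirzepatide; exceptions are named. From other lists, up to 4 called genes per comparison were named. By single number, replicates did not pair the libraries: same-numbered deviations correlated at -0.127 to 0.189, with 5 of 24 pairs over 0.1. This check was not built to find a split of libraries 1 and 2 from 3 and 4. In every group the mitochondrial share was higher in libraries 1 and 2 (control 11.2 and 9.53% against 8.39 and 8.32%). Adar was lower there in every group, as was Trim25, while Samhd1 was not. In control Adar had 64.3 and 63.9 TPM there, against 74.1 and 76.7 TPM. What the split reflects was not tested. Replicates differed beyond sampling noise (chi-square per degree of freedom 2.71 to 17.8). Promoter windows are from RefSeq on GRCm38.p6, matched by symbol; no coordinate was joined to the files' build.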

Additional observations from a re-analysis of the deposited data

Results flagged for a closer look

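In 10 of the 168 groups of 4 libraries, formed by 42 genes in 4 treatment groups, 1 library lay far from the other 3 by Dixon's criterion, where chance flags about 1 in 20 groups, or 8.4 of 168. In library 2 of the combination Ifit1 had 0.933 TPM, against 0.14 to 0.232 TPM in the other 3, and Cmpk2 had 1.143 TPM, against 0.431 to 0.465 TPM. This library also stood apart in Il1b, Plin2, Hmox1 and Slc7a11. With oxLDL alone, Ifi207 had 40.914 TPM in library 2, against 46.9 to 47.4 TPM in the others, and Gbp7 had 1.445 TPM in library 4, against 0.828 to 0.879 TPM. With tirzepatide alone, library 2 had 9.018 TPM of Stat2, against 10.6 to 10.8 TPM, and 5.077 TPM of Igtp, against 2.9 to 3.12 TPM. Tirzepatide library 1 had 3.848 TPM of Trim21, against 4.4 to 4.42 TPM, and 5.749 TPM of Parp14, against 5.42 to 5.47 TPM. Among the controls, Oas3 had 26.625 TPM in library 3, against 23.8 to 24.3 TPM in the others, and Slfn5 had 16.33 TPM in library 4, against 12.7 to 13.2 TPM.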

How the results depend on the processing

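Under the settings run, 0 of the called members changed direction. For oxLDL against control, 10 to 16 genes passed with 1 library left out and 10 to 17 under the other settings. For the combination against tirzepatide the range was 7 to 13, and 16 passed without controls 1 and 2 and library 2 of the combination. For tirzepatide against control, 0 to 8 passed with 1 library left out, 3 with only the groups compared in the fit and 10 with a covariate for the mitochondrial share. For the combination against oxLDL, 0 to 1 passed with 1 library left out, and 1 passed in each case with DESeq2, with no filter on low counts and without controls 1 and 2. For the combination against control the range was 7 to 12, and for the interaction 0 under every setting run. The tirzepatide effect averaged over oxLDL states had 6 to 15 with 1 library left out, 15 with DESeq2, 13 with no filter and 16 with a covariate for the mitochondrial share. The share of all genes called under each setting is not given beside these counts. They show how the calls moved and cannot be set against a background. The cause of these moves was not tested. A fit of only the groups compared could not be made for the averaged effect or the interaction.

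With a replicate block, 17 genes passed for oxLDL against control, 12 for the combination against tirzepatide, 7 for tirzepatide against control, 0 for the combination against oxLDL, 12 for the combination against control, 0 for the interaction and 14 for the averaged effect, against 8 without the block. In 6 of 24 pairs of library and group the best match was the same number, so single numbers did not pair the libraries. That does not cover the split of libraries 1 and 2 from 3 and 4 in mitochondrial share. The block absorbs such a split and the main fit does not. Why the counts moved with the block was not tested.

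At this depth and with 4 libraries per group, members with few counts were measured less closely: the standard error of the oxLDL change was 0.67 for Ifit1 and 0.43 for Gbp3, against 0.04 for Samhd1.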
